A study of Mus musculus with 24 samples.

Results

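The genes described here are 51 genes of G2 phase and mitosis, taken by symbol from the 24982 gene rows of the count tables. All 51 were present and all 51 passed the filter on low counts. They were set into 9 role groups, from the cyclins with Cdk1 to the proteins that shape mitotic chromosomes. RNA was sequenced from eosinophil-lineage cells that were flow-sorted out of the marrow of wild type C57BL6 mice as 4 maturation stages, I to IV. The animals were either left in steady state or received 400 ng recombinant murine IL-33 by intraperitoneal injection each day for 7 days, which raises eosinophil numbers; no age was used here. Each of the 8 groups (4 stages in 2 conditions) had 3 libraries, 24 in all, and each library came from the pooled marrow of 3 mice. Lineage-positive cells were first removed with antibodies to Ly6G, CD90.2, NK1.1 and CD45R. The sort that followed used antibodies to CD117, CD55, CD29, CD200R3, Siglec-F, Pir-A/B and F4/80. Because a pool stands for its mice, the spread between libraries is the spread between pools.

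In a dividing cell, cyclin A and the B-type cyclins activate the kinase Cdk1 to drive entry into mitosis. Aurora and Polo-like kinases, kinesin motors and the kinetochore then attach chromosomes to the spindle. The checkpoint holds the cell until all are attached, after which Cdc20 and the anaphase-promoting complex mark cyclin B and securin for destruction and the chromatids part. Many genes of G2 and M phase are transcribed through promoters with CCAAT boxes, bound by NF-Y, or a cell cycle homology region (CHR), bound by the DREAM and MuvB complexes, or both. Granulocyte precursors in the marrow divide while immature and stop dividing as they mature, so these transcripts are widely used to mark the dividing stages.

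The promoters of a few members are shown for the letters that this gene set is known for. RefSeq promoters of build GRCm38.p6 were matched by symbol for 42 of the 51 members. The motifs searched on both strands in the 150 bases before the start were TTTGAA, the usual CHR letters, and CCAAT. The 2 motifs share no run that would let one match count as the other. The 110 bases before the RefSeq start are printed 5′ to 3′ along the gene, and capitals mark each match, written TTCAAA or ATTGG where it lies on the other strand.
Top2a promoter, chr11:99024190-99024299, minus strand: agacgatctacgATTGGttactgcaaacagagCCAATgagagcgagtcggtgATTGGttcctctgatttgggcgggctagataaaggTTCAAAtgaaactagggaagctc
Cdk1 promoter, chr10:69352913-69353022, minus strand: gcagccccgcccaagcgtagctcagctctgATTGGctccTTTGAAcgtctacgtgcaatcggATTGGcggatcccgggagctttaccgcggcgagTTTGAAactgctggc
Cdc20 promoter, chr4:118437344-118437453, minus strand: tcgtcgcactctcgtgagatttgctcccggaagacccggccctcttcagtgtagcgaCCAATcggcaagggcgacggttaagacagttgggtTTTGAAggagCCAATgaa
Kif11 promoter, chr19:37376272-37376381, plus strand: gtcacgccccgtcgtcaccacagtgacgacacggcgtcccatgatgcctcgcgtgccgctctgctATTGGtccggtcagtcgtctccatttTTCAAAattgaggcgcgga
Cks2 promoter, chr13:51645122-51645231, plus strand: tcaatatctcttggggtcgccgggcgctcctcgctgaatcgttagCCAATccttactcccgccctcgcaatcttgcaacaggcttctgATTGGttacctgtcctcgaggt
Kif23 promoter, chr9:61946800-61946909, minus strand: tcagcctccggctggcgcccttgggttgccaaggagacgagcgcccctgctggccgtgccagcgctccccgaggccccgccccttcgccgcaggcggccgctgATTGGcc
Top2a, Cdk1, Cdc20 and Kif11 were chosen because each holds TTTGAA near the start, with its first base 23, 15, 18 and 19 bases before it, and Cdk1 holds a second match 71 bases before it. Cks2 and Kif23 were chosen because their levels departed from those of most members, described further on. Neither holds TTTGAA in the printed window, while Cks2 holds CCAAT 65 and 22 bases and Kif23 7 bases before the start. Members that followed the main pattern lacked TTTGAA too, among them Ccnb1, Ccnb2, Birc5, Cdca8, Aurka and Nusap1 in the 150 bases searched. Pttg1, which also departed, held neither motif there. Whether a motif goes with a member's course was not tested. CCAAT was found in 30 of the 42 members' promoters (71.4%), against 27.5% of 12706 promoters of genes tested here and 24.5% of all 32851 promoters. TTTGAA was found in 14 of 42 (33.3%), against 5.53% of the promoters of genes tested and 9.07% of all promoters. Within the last 30 bases before the start TTTGAA was found in 9 of 42 members (21.4%), against 0.929% and 1.45%. Both motifs occurred together in 11 of 42 (26.2%), against 1.74% and 2.24%, and CCAAT occurred in 2 or more places in 18 of 42 (42.9%), against 8.64% and 6.02%. TTCGAA was found in 1 of 42 (2.38%), against 0.667% of all promoters. The E2F site TTTCCCGC was found in 0 of 42, against 0.603% of all promoters, and TTTGGCGC in 2 of 42 (4.76%), against 0.268%. These matches describe letters in a window and are not evidence of binding. Promoters of Ccna2, Cdc25c, Aurkb, Incenp, Tpx2, Kif20a, Spc24, Smc4 and Cdca2 were not used here.

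The libraries held 8335138 to 14909453 counts assigned to genes, and the 51 members took 0.110% to 1.29% of them. Counts without a gene made up 17.8% to 30.5% of a library's total in steady state and 9.19% to 16.6% under IL-33. The 4 steady state libraries numbered 3 stood apart from the other 20 in some genes. In them Jun, an immediate early gene, was at 3331 to 5018 CPM (gene counts scaled to a common library total), against 875 to 2142 CPM elsewhere, and Atf3, a stress-induced gene, was at 164.6 to 1063 CPM against 1.33 to 52.0 CPM. Fos, also immediate early, overlapped, at 3189 to 4468 CPM against 1058 to 3372 CPM. Results in steady state are therefore also given without these 4 libraries where they differ. The second IL-33 stage I library also differed from the first and the third in some members, in both directions. In it Ube2c was at 624 CPM against 280.1 and 336 CPM, and Kif11 at 131 CPM against 232 and 219 CPM. In the sorted cells the 9 eosinophil marker genes summed to 20772 to 40013 CPM in stages I to III of both conditions, to 21198 to 27415 CPM in stage IV under IL-33 and to 4573 to 8055 CPM in stage IV in steady state. The 11 neutrophil marker genes summed to 10546 to 26441 CPM in steady state stage IV, above the eosinophil marker sum there. Hemoglobin transcripts Hba-a1, Hba-a2, Hbb-bs and Hbb-bt were at 0 in every group. With these 4 at 0, the erythroid markers still summed to 126 to 200 CPM in steady state stage I. The reason for the 0 counts was not tested. Levels are given as CPM scaled by TMM factors, and the term adjusted p stands for the edgeR quasi-likelihood test with Benjamini-Hochberg adjustment over 12743 genes. A member was called at an adjusted p of at most 0.05. Gene positions are from GENCODE M21 on GRCm38. Of the 51 members, 10 share exon bases with another counted gene, 9 of them on the other strand (Ccna2, Cdca8, Nusap1, Kif20a, Kif4, Cdc20, Ube2c, Prc1 and Ncapg, with Ncapd2 on the same strand), and since the library kit does not mark strand their counts are uncertain to that extent. Ccnb1, Ccnb2, Kif22 and Kif4 also share their symbol with an annotated pseudogene. Bulk RNA cannot tell fewer dividing cells from less of a transcript in each cell, and this holds for each difference that follows.

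Summed over the 51 members, the level in steady state was 5281 ± 680 CPM (SD, n = 3) in stage I, 9380 ± 2366 in stage II, 1895 ± 314 in stage III and 1731 ± 589 in stage IV. Under IL-33 it was 9883 ± 476 CPM in stage I, 11793 ± 840 in stage II, 10345 ± 796 in stage III and 1395 ± 145 in stage IV. The sum was low in stages III and IV in steady state and in stage IV alone under IL-33. In steady state 49 of the 51 members had their highest mean in stage II, the exceptions being Cks2 and Pttg1, which were highest in stage IV. For Cks2 this came from the third library, since the first and the second were lower in stage IV than in stage II. Under IL-33 41 members were highest in stage II. Cks2, Birc5, Spc24, Mad2l1, Ube2c and Cdca3 were highest in stage I, Ccnb2, Cenpa and Ndc80 in stage III, and Pttg1 in stage IV. In each of the genes highest in stage I, the second stage I library was above the first and the third. For Birc5, Mad2l1 and Cdca3 the first and the third library were lower in stage I than in stage II.

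**Figure D1:**
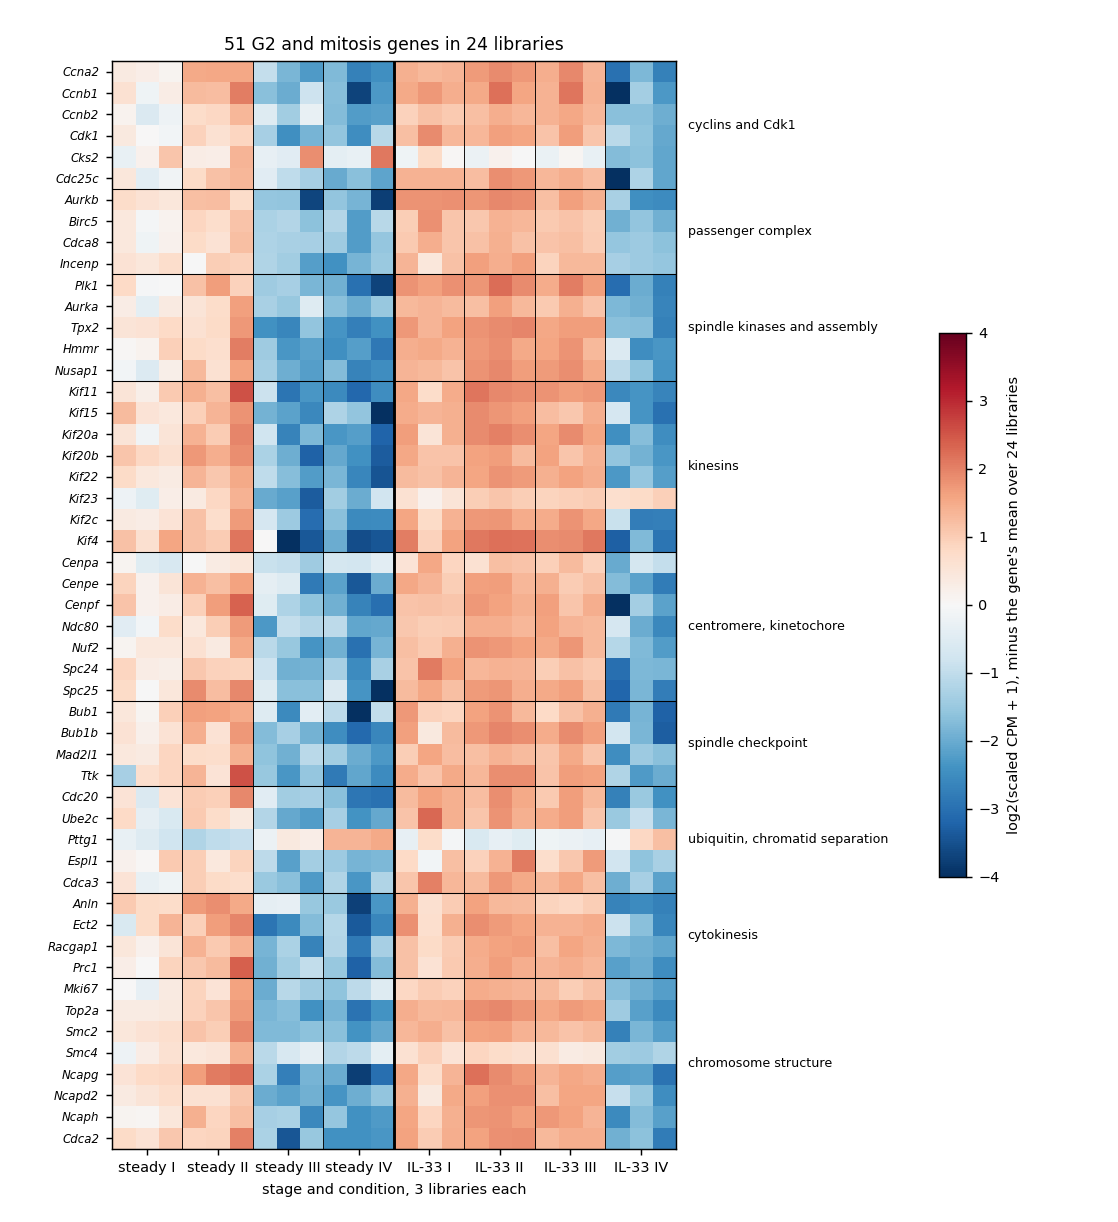
Heat map of the 51 members (rows, by role group) in the 24 libraries (columns, 3 for each stage and condition). Colour shows log2(scaled CPM + 1) minus the gene's mean over all libraries, from blue (lower) to red (higher); stage III is blue in most rows in steady state and red under IL-33, and the rows of Cks2, Kif23 and Pttg1 differ from their neighbours.

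Levels differed widely between the members. On a per-length scale (RPKM, CPM divided by the kilobases of exon) in steady state stage II, the median of the 51 mean levels was 33.8 RPKM. Cks2, a small subunit of the Cdk1 complex, was highest at 549 RPKM, followed by Ccnb2 at 191 RPKM and Cdc20 at 176 RPKM, whereas separase (Espl1) was lowest at 5.21 RPKM. The spread between libraries was also uneven. The median coefficient of variation of a member was 9.86% in IL-33 stage II and 13.2% in IL-33 stage III, against 30.1% in steady state stage II and 41.3% in steady state stage III.

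In steady state the G2 and mitosis genes fell almost as a body between stages II and III. Lower in stage III were 49 of 51, 1 was higher (Pttg1) and 1 was not called (Cks2), where 34.6% of all genes tested were called, 17.4% lower and 17.2% higher. The median change of the members was -2.87 on the log2 scale, a 7.30-fold lower level, against a median of 0 over all genes. In 49 members every stage III library was below every stage II library, against 17.6% of all genes. Stage III kept a median of 13.7% of the stage II mean, from 6.02% for Ect2 to 235% for Pttg1. Without the steady state libraries numbered 3, 48 members were lower and 1 higher.

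From stage III to stage IV under IL-33 the same direction was seen 1 stage later. Lower in stage IV were 49 of 51, 1 was higher (Pttg1) and 1 was not called (Kif23), where 29.1% of all genes were called, 16% lower and 13.1% higher. The median change was -3.39 (10.5-fold lower) against 0.01 over all genes, and 49 members were lower in stage IV without overlap, against 27.7% of all genes. Stage IV kept a median of 8.42% of the IL-33 stage II mean, from 3.17% for Kif4 to 238% for Pttg1. In steady state, stage IV kept 9.33%.

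Between stages II and III under IL-33 edgeR called no member, where it called 0.0863% of all genes, and at an unadjusted p under 0.05 it also called none. DESeq2 called no member and 0.871% of all genes. Limma-voom with sample weights called 2 members lower, where it called 8.55% of all genes, 3.55% lower. The median change was -0.19, and 15 members were lower and 1 higher without overlap, against 12.5% and 13.2% of all genes. Stage III under IL-33 kept a median of 87.4% of stage II, from 70.2% for Kif15 to 118% for Pttg1. Its mean stood at a median of 112% of the steady state stage II mean.

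IL-33 and steady state cells differed most, by the members' median, in stage III. There 49 of 51 members were higher under IL-33 and none lower, where 33.4% of all genes were called, 18.5% higher and 14.9% lower. The median difference was 3.13 on the log2 scale, an 8.74-fold higher level, and all 49 were higher without overlap, against 27.8% of all genes. The 2 members not called were Cks2 and Pttg1. The count was 49 without the steady state libraries numbered 3 as well. This comparison, the step into stage III and the step out of it in steady state share the 3 steady state stage III libraries, so they are not independent of each other.

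The differences between the steps were themselves tested. The change from stage II to III differed between the conditions for 42 of 51 members, all less negative under IL-33, where 6.61% of all genes were called, 4.49% in that direction. The median difference was 2.70 on the log2 scale. Not called were Cks2, Bub1, Cdc25c, Pttg1, Kif4, Cenpa, Cenpe, Spc25 and Smc4. The change from stage III to IV differed for 47 members, all more negative under IL-33, where 18.7% of all genes were called, 10.3% in that direction, with a median of -2.80. Pttg1, Cks2, Kif4 and Kif23 were not called. Both tests use the same stage III libraries.

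**Figure D2:**
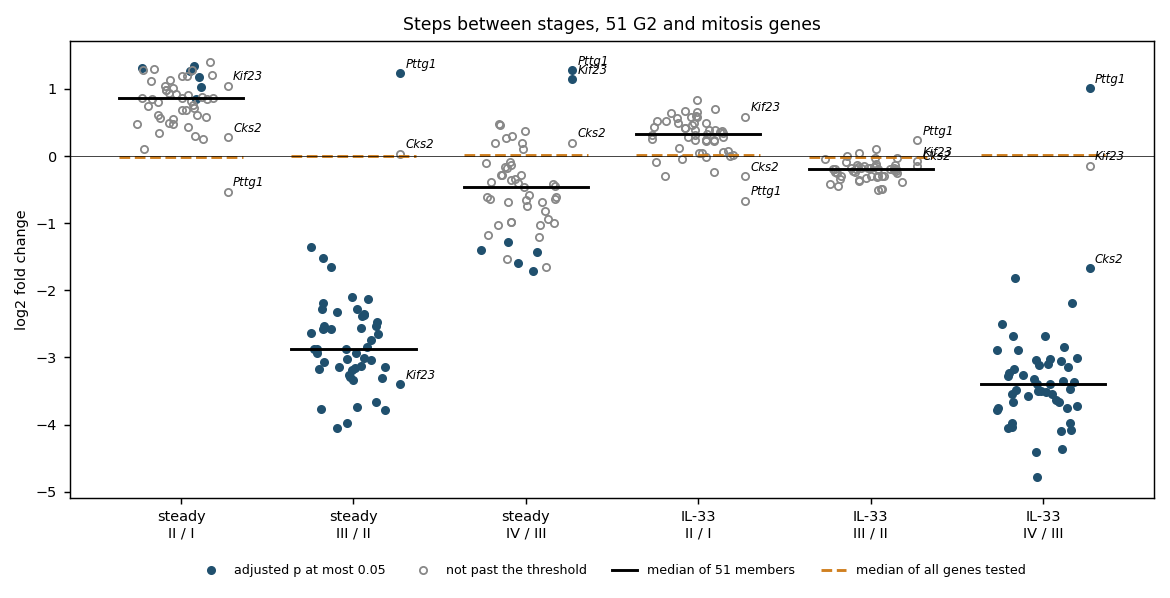
Log2 fold changes of the 51 members in the 3 steps between stages, in steady state (left) and under IL-33 (right); each point is a gene, filled where its adjusted p was at most 0.05, and lines give the medians of the members (solid) and of all genes tested (dashed). The members sit near -2.87 in the steady state step from II to III and near -3.39 in the IL-33 step from III to IV, with Pttg1 above 0 in both.

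The smaller steps moved fewer members. In steady state, 6 of 51 members were higher in stage II than in stage I and none lower, where 4.87% of all genes were called, 3.58% higher and 1.29% lower. These were Ccna2, Ccnb2, Nusap1, Prc1, Mki67 and Smc2, and the median of all 51 was 0.87 (1.82-fold higher) with 50 above 0. At an unadjusted p under 0.05, 29 were higher. For this and the other counts at an unadjusted p, the share of all genes is not given here. Without overlap 31 members were higher and 1 lower, against 10.8% of all genes in each direction. The same-numbered libraries of these groups varied together, and with the number as a block 21 members were higher, where 8.39% of all genes were called, 6.01% higher. The count rested on single libraries, since it was 2 without the first and 0 without the second steady state stage I library, and 2 without the third stage II library. Under IL-33 edgeR called no member in this step, where it called 0.0942% of all genes, 0.0785% higher and 0.0157% lower, and at an unadjusted p under 0.05 it had 1 member higher and 1 lower. DESeq2 called no member and 0.322% of all genes. Limma-voom called 10 members higher, where it called 7.1% of all genes, 4.2% higher. In that step 23 members were higher without overlap, against 11.3% of all genes. The difference between conditions in this step was called by edgeR for no member and for 0% of all genes, with 3 members below 0 at an unadjusted p under 0.05. DESeq2 and limma-voom also called no member, where they called 0.808% and 0.29% of all genes.

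From stage III to IV in steady state 2 members were higher (Pttg1 and Kif23) and 5 lower (Ccnb2, Plk1, Cdc20, Cenpe and Anln), where 9.23% of all genes were called, 3.55% higher and 5.67% lower. The median was -0.46. The count was 4 without the first steady state stage III library and without the second or the third stage IV library. Without the 4 libraries numbered 3 it was also 4, of which 3 were lower.

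**Figure D3:**
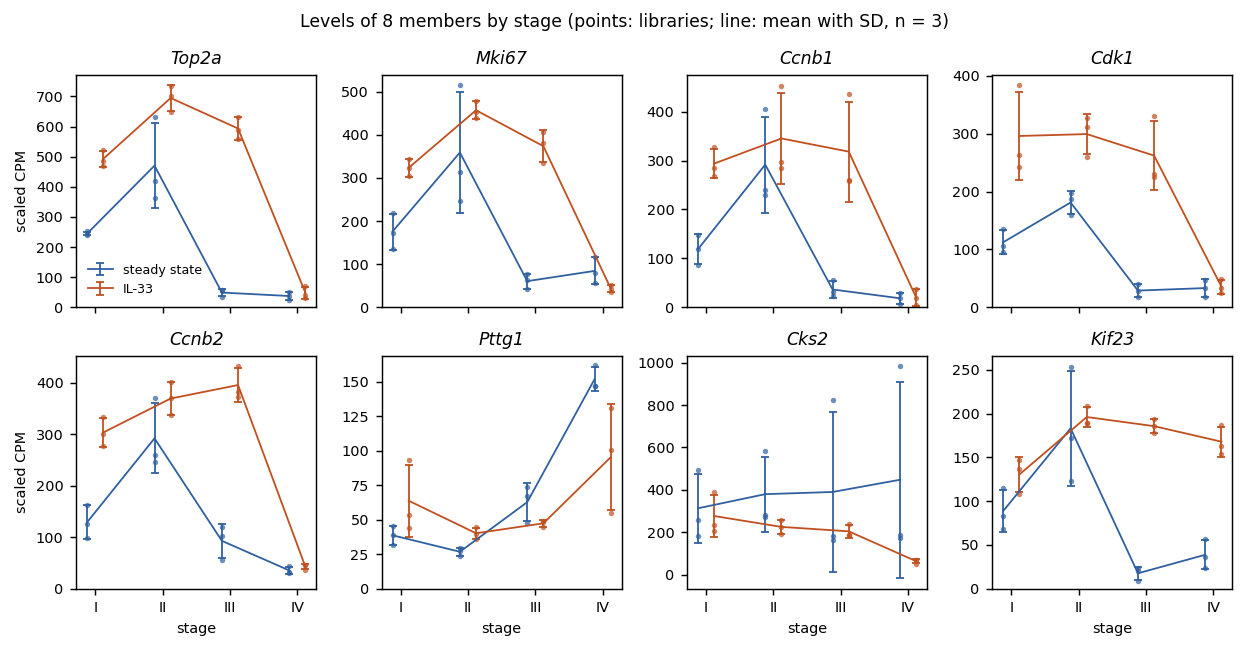
Scaled CPM of 8 members by stage in steady state (blue) and under IL-33 (orange); points are libraries, lines join the means and bars are SD, n = 3. Top2a, Mki67, Ccnb1, Cdk1 and Ccnb2 are low in stage III in steady state and high there under IL-33, while Pttg1, Cks2 and Kif23 follow other courses.

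Among the cyclins and Cdk1, all but Cks2 followed the main pattern. Cdk1 (chr10:69335146-69352938, minus strand) encodes the mitotic kinase itself. Its levels in steady state were 136, 106 and 95.6 CPM in stage I, 197, 159 and 188 in stage II, 40.6, 18.2 and 27.8 in stage III and 34.1, 17.6 and 47.9 in stage IV. Under IL-33 they were 242, 384 and 262 CPM in stage I, 259.5, 326 and 312 in stage II, 229.5, 331 and 226 in stage III and 48.6, 33.7 and 24.1 in stage IV. The stage III libraries of the conditions did not overlap, and those of stage IV did. Cdk1 fell from stage II to III in steady state and was 6.28-fold lower (log2 -2.65, SE 0.34, adjusted p = 4.31e-06). It was 9.09-fold higher (log2 3.18, SE 0.35, adjusted p = 7.16e-07) under IL-33 in stage III and 7.39-fold lower (log2 -2.89, SE 0.34, adjusted p = 1.60e-06) in stage IV than in stage III under IL-33.

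Ccnb1 (chr13:100778650-100786570, minus strand) encodes cyclin B1, the main partner of Cdk1 at mitotic entry. In steady state it was at 149, 87.1 and 120.0 CPM in stage I, 239, 231 and 405 in stage II, 30.4, 23.8 and 55 in stage III and 29.5, 6.56 and 19.1 in stage IV. Under IL-33 it was at 285, 328 and 269 CPM in stage I, 285, 453.5 and 297 in stage II, 260.0, 436.4 and 259 in stage III and 3.96, 37.4 and 19 in stage IV. All stage III libraries under IL-33 lay above all those in steady state. In the steady state step into stage III Ccnb1 was 8.01-fold lower (log2 -3.002, SE 0.55, adjusted p = 2.29e-04), and in stage III under IL-33 it was 8.74-fold higher (log2 3.13, SE 0.55, adjusted p = 1.60e-04). Its fall into stage IV under IL-33 was 15.8-fold (log2 -3.98, SE 0.58, adjusted p = 1.87e-05).

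Ccnb2, the other B-type cyclin of these cells, fell in 2 steps in steady state. Its levels there were 163, 97.6 and 126 CPM in stage I, 246, 259.7 and 369.9 in stage II, 103, 55.6 and 119.6 in stage III and 43.3, 30.5 and 31.8 in stage IV. The 4 sets did not overlap except for stages I and III. Ccnb2 was 3.15-fold lower (log2 -1.66, SE 0.25, adjusted p = 2.87e-05) in stage III than in stage II and 2.63-fold lower (log2 -1.39, SE 0.25, adjusted p = 0.00102) in stage IV than in stage III. Stage III thus kept 31.8% of the stage II mean, more than the 13.7% of the median member. The IL-33 libraries read 276, 333 and 301 CPM in stage I, 336, 401 and 369.5 in stage II, 383, 431.9 and 371 in stage III and 45.1, 44.8 and 36.9 in stage IV. Stage IV alone was low there, and in stage III they were 4.27-fold higher (log2 2.09, SE 0.25, adjusted p = 2.37e-06) than those in steady state.

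Ccna2 encodes cyclin A2, which acts from S phase into early mitosis. It was at 250.1, 256 and 252 CPM in steady state stage II and 43.7, 23.7 and 17.1 CPM in stage III, without overlap and 8.99-fold lower (log2 -3.17, SE 0.33, adjusted p = 4.89e-07). It was also 2.47-fold higher in stage II than in stage I, at 110.1, 103 and 93.2 CPM (log2 1.31, SE 0.31, adjusted p = 0.0166), a call lost without the second or the third stage I library (adjusted p = 0.0633 and 0.0504). Cdc25c, the phosphatase that activates Cdk1, was at 31.9, 41.7 and 46.6 CPM in steady state stage II, 12.9, 8.57 and 6.68 in stage III, 44.5, 68.2 and 62.4 in IL-33 stage II and 47.2, 51 and 44.4 in IL-33 stage III. Of these, the steady state stage III libraries alone were low. Cdc25c was 4.27-fold lower (log2 -2.10, SE 0.61, adjusted p = 0.0102) in that step, a call lost without the libraries numbered 3 (adjusted p = 0.0520), and the difference between the conditions in the step was not called (log2 1.80, SE 0.83, adjusted p = 0.205). Ccna2 stood at 24.9, 12.6 and 14.9 CPM in steady state stage IV, 235, 213 and 222 in IL-33 stage I, 282, 326 and 288 in stage II, 241, 329 and 221 in stage III and 10.1, 24.1 and 12.6 in stage IV. Cdc25c stood at 25.3, 13.2 and 16.2 CPM in steady state stage I, 3.73, 4.99 and 3.43 in stage IV, 49.7, 49.1 and 49.4 in IL-33 stage I and 0, 7.15 and 3.55 in stage IV. For both genes all libraries of steady state stages III and IV and of IL-33 stage IV were below all others, by a narrow margin for Cdc25c.

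Cks2 (chr13:51645232-51650660, plus strand) departed from the pattern and depended on 1 set of libraries. In steady state it was at 184, 260.2 and 496 CPM in stage I, 282, 275 and 583 in stage II, 181, 166 and 824 in stage III and 175, 187 and 982 in stage IV. In each stage the third library was the highest, and in stages III and IV it was far above the other 2. Jun and Atf3 were also high in these 4 libraries, and their part in the Cks2 values was not tested. With all libraries, Cks2 was not called from stage II to III (log2 0.04, SE 0.57, adjusted p = 0.982). Without those numbered 3 it was called lower, with a log2 change of -0.77 and an adjusted p of 0.0339. Under IL-33 Cks2 was at 204, 391 and 237 CPM in stage I, 194, 257 and 226 in stage II, 188, 239.9 and 187 in stage III and 67.5, 71.9 and 53.2 in stage IV, with every stage IV library below all others. It was 3.19-fold lower (log2 -1.67, SE 0.59, adjusted p = 0.0358) in stage IV than in stage III, a call lost when any 1 of the 6 libraries was left out, with adjusted p from 0.0580 to 0.113. In stage IV it was 6.97-fold lower (log2 -2.80, SE 0.61, adjusted p = 0.00376) under IL-33 than in steady state, and without the third steady state stage IV library the log2 difference was -1.49 with an adjusted p of 0.0774. The difference between conditions in the step III to IV was not called for Cks2 (log2 -1.87, SE 0.82, adjusted p = 0.118), but it was without the third steady state stage III library (log2 -3.04, adjusted p = 0.00617) and without all 4 steady state libraries numbered 3 (log2 -1.77, adjusted p = 0.00132).

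The chromosomal passenger complex corrects faulty attachments and guides cytokinesis. All 4 members were lower in steady state stage III than in stage II and higher in stage III under IL-33. Cdca8 encodes borealin, a subunit that brings the complex to centromeres. It was at 284, 248 and 379 CPM in steady state stage II, 69.4, 66.8 and 64.8 in stage III and 362, 380.2 and 338 in IL-33 stage III, so that the last 2 sets did not overlap. Cdca8 was 4.53-fold lower (log2 -2.18, SE 0.22, adjusted p = 3.50e-07) in the step and 5.37-fold higher (log2 2.43, SE 0.23, adjusted p = 8.34e-08) under IL-33. Birc5 encodes survivin, which binds the centromere mark on histone H3. Its libraries read 259.5, 229.9 and 310.5 CPM in steady state stage II, 58, 62.2 and 44.9 in stage III and 294, 311 and 282 in IL-33 stage III, again with stage III in steady state the lowest. Birc5 was 4.85-fold lower (log2 -2.28, SE 0.27, adjusted p = 1.85e-06) in the step and 5.37-fold higher (log2 2.42, SE 0.27, adjusted p = 8.96e-07) under IL-33 in stage III. Aurkb, the kinase of the complex, was at 23.4, 23 and 4.67 CPM in steady state stage III and 163, 224 and 192 in IL-33 stage III. The third steady state library was the lowest, and Aurkb had the largest of the 4 differences there, 11.4-fold (log2 3.51, SE 0.50, adjusted p = 1.55e-05). Incenp, the scaffold that joins the kinase to the other subunits, was 6.84-fold higher (log2 2.77, SE 0.31, adjusted p = 1.01e-06) in stage III under IL-33. In the remaining groups, Cdca8 stood at 221, 148 and 187 CPM in steady state stage I, 61.2, 34.2 and 56.1 in stage IV, 340.4, 451.02 and 359 in IL-33 stage I, 372, 444.8 and 373 in stage II and 55.9, 60.0 and 52.8 in stage IV. Birc5 stood at 189, 135 and 155 CPM in steady state stage I, 61.6, 29.3 and 64.5 in stage IV, 282, 505 and 309 in IL-33 stage I, 302, 369 and 357 in stage II and 36.8, 46.3 and 36.4 in stage IV. Of Cdca8 and Birc5 all libraries of steady state stages III and IV and of IL-33 stage IV were below all others.

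The 5 spindle kinases and assembly factors were all lower in the steady state step into stage III, with a median of -3.06, and all lower in the IL-33 step into stage IV. Nusap1 encodes a microtubule-bundling protein near chromosomes. It was at 77.2, 57.8 and 99.3 CPM in steady state stage I, 206, 129 and 256 in stage II, 32.4, 20.9 and 17.5 in stage III and 24.8, 12.4 and 14.3 in stage IV. Under IL-33 it was at 219, 210.3 and 186 CPM in stage I, 294, 323 and 268 in stage II, 279, 309.8 and 240.4 in stage III and 40.6, 27 and 15.6 in stage IV. Stages III and IV in steady state and stage IV under IL-33 were the low groups, and no other library was as low. Nusap1 was 8.36-fold lower (log2 -3.06, SE 0.35, adjusted p = 9.96e-07) in steady state stage III than in stage II. Tpx2, which activates Aurora A on the spindle, was at 109, 122 and 243 CPM in steady state stage II, 12.7, 10.9 and 23.4 in stage III and 212, 233 and 229.7 in IL-33 stage III. Tpx2 stood at 103, 108 and 127 CPM in steady state stage I, 13.2, 10.1 and 12.6 in stage IV, 239, 186 and 221 in IL-33 stage I, 252, 269 and 280.1 in stage II and 21.7, 21.4 and 10.2 in stage IV. The 3 low groups of Nusap1 were low for Tpx2 too, below every other library. The stage III difference between conditions for Tpx2 was 14.3-fold (log2 3.84, SE 0.34, adjusted p = 4.91e-08). Plk1, the Polo-like kinase of mitotic entry, was at 114, 159.7 and 94.5 CPM in steady state stage II, 18.1, 19.4 and 13.5 in stage III and 12.4, 5.45 and 2.88 in stage IV, each set below the one before. Under IL-33 Plk1 was at 140.0, 209 and 162 CPM in stage III and 5.12, 12 and 6.82 in stage IV. It fell 21.3-fold in this last step (log2 -4.41, SE 0.42, adjusted p = 1.39e-07). Its smaller change into stage IV in steady state (log2 -1.27, SE 0.39, adjusted p = 0.0394) was lost when any 1 of 4 libraries was left out, the first or the second of stage III or the second or the third of stage IV (adjusted p = 0.0948, 0.0930, 0.184 and 0.162). Aurka, Aurora A, fell 10.2-fold in the IL-33 step (log2 -3.35, SE 0.33, adjusted p = 1.91e-07), and Hmmr, a spindle protein that binds hyaluronan, fell 8.8-fold (log2 -3.14, SE 0.46, adjusted p = 2.35e-05).

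All 8 kinesins were lower in steady state stage III than in stage II, with log2 changes from -3.77 for Kif15 to -2.75 for Kif2c. Kif11, the motor that pushes the spindle poles apart, was at 213, 181 and 459.97 CPM in stage II, 43, 9.49 and 14.7 in stage III and 274, 251 and 263 in IL-33 stage III. The steady state stage III libraries were below all of the other 6. Kif11 was 12.7-fold lower (log2 -3.67, SE 0.44, adjusted p = 2.01e-06) in the step and 11.7-fold higher (log2 3.55, SE 0.44, adjusted p = 2.65e-06) under IL-33. Kif22, a motor on chromosome arms, was at 248, 207 and 280.4 CPM in steady state stage II, 47.1, 29.4 and 19.6 in stage III and 259, 299 and 267 in IL-33 stage III. It showed the same order of groups and was 7.66-fold lower (log2 -2.94, SE 0.34, adjusted p = 1.41e-06) in the step. Kif20a, a motor of the late midzone, was 8.81-fold, Kif20b 13.4-fold, Kif15 13.7-fold and the microtubule depolymerase Kif2c 6.71-fold lower in that step. These 4 were 9.92-fold, 10.8-fold, 12.5-fold and 8.62-fold higher in stage III under IL-33. Kif4 fell furthest of all members into stage IV under IL-33, 27.5-fold (log2 -4.78, SE 0.90, adjusted p = 3.04e-04). Its counts were uneven, at 26.3, 0.343 and 1.59 CPM in steady state stage III, and its steady state step was lost without the libraries numbered 3 (adjusted p = 0.0562) or in a fit of the compared groups alone (adjusted p = 0.0922). Kif11 stood at 111, 93.1 and 164 CPM in steady state stage I, 12.6, 8.04 and 13.2 in stage IV, 232, 131 and 219 in IL-33 stage I, 345, 297 and 285 in stage II and 12.3, 14.3 and 11.6 in stage IV. Kif22 stood at 167, 129 and 123 CPM in steady state stage I, 26.8, 15.2 and 7.95 in stage IV, 235, 219.8 and 251 in IL-33 stage I, 288, 339 and 319.6 in stage II and 19.1, 32.8 and 20.3 in stage IV. Kif4 stood at 60.2, 41.3 and 79.6 CPM in steady state stage I, 60.0, 53.1 and 117 in stage II, 5.9, 1.29 and 1.51 in stage IV, 109.7, 50.3 and 81 in IL-33 stage I, 115, 123 and 120.2 in stage II, 97.8, 100.0 and 116 in stage III and 1.83, 6.97 and 2.55 in stage IV. In these 3 kinesins all libraries of steady state stages III and IV and of IL-33 stage IV were below all others.

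Kif23 (chr9:61915905-61946774, minus strand) was the kinesin that stayed high. It encodes MKLP1, the motor that bundles microtubules at the midzone for cytokinesis. In steady state it was at 82.5, 68.3 and 115 CPM in stage I, 123, 172 and 254 in stage II, 23.1, 20.6 and 8.59 in stage III and 36.1, 23.3 and 56.5 in stage IV, with no library of stages III and IV as high as any of stages I and II. In IL-33 animals the level was 146, 108 and 137 CPM in stage I, 189, 209 and 189.7 in stage II, 177, 186 and 193 in stage III and 154, 163 and 187 in stage IV, and its stage IV values overlapped those of stage III. Kif23 was 10.5-fold lower (log2 -3.40, SE 0.35, adjusted p = 4.16e-07) in steady state stage III than in stage II. The IL-33 step into stage IV gave log2 -0.15, SE 0.32, adjusted p = 0.772, and stage IV kept 85.6% of the stage II mean, against a median of 8.42% over the members. In stage IV Kif23 was 4.35-fold higher (log2 2.12, SE 0.33, adjusted p = 1.44e-04) under IL-33 than in steady state, the only member higher there, where 12.2% of all genes were called, 7.48% higher and 4.68% lower. Its call there held under every alternative tried, but the share of reads without a gene was not tried as a covariate in this comparison. In steady state Kif23 was 2.22-fold higher (log2 1.15, SE 0.33, adjusted p = 0.03) in stage IV than in stage III, a call lost without the third stage III library (adjusted p = 0.126) or the third stage IV library (adjusted p = 0.185). The difference between the conditions in the step III to IV just missed the threshold (log2 -1.29, SE 0.46, adjusted p = 0.0511). It was called without the first steady state stage III library (log2 -1.55, adjusted p = 0.0292) or the second steady state stage IV library (log2 -1.62, adjusted p = 0.0178), and with library totals (log2 -1.63, adjusted p = 0.0123). Racgap1, whose product forms the centralspindlin complex with MKLP1, fell 10.5-fold in the IL-33 step into stage IV (log2 -3.40, SE 0.35, adjusted p = 3.59e-07).

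All 7 centromere and kinetochore genes were lower in steady state stage III than in stage II, with a median of -2.56. Cenpa encodes the histone H3 variant that marks centromeres. In steady state it was at 199.9, 129.9 and 118 CPM in stage I, 183, 229 and 251 in stage II, 98.1, 94 and 67.7 in stage III and 112, 111 and 137 in stage IV. Under IL-33 it was at 268, 543 and 332 CPM in stage I, 278, 427 and 407 in stage II, 354, 442.8 and 349 in stage III and 44.2, 113 and 93.4 in stage IV. Stage III in steady state was below stage II without overlap, but Cenpa kept more there than any other member of the role group. It was 2.55-fold lower (log2 -1.35, SE 0.31, adjusted p = 0.00166), the smallest fall of the 49. Spc25, a subunit of the Ndc80 complex that holds microtubules, was at 244, 155 and 252 CPM in steady state stage II, 45.8, 19.9 and 19.8 in stage III and 189.5, 207 and 150.4 in IL-33 stage III. The libraries of steady state stage III were the lowest of these, and Spc25 was 7.62-fold lower (log2 -2.93, SE 0.64, adjusted p = 0.00112). Spc25 stood at 113, 64.9 and 90.4 CPM in steady state stage I, 43.8, 11.8 and 1.1 in stage IV, 159.9, 194 and 152 in IL-33 stage I, 214, 223 and 181 in stage II and 6.37, 17.8 and 8.73 in stage IV. Its steady state stage IV libraries were widely spread, at low counts. Its partners in the Ndc80 complex, Ndc80, Nuf2 and Spc24, were 5.96-fold, 5.91-fold and 5.55-fold lower in steady state stage III. They were 7.23-fold, 9.04-fold and 5.97-fold higher there under IL-33. Cenpf, a large protein of the outer kinetochore, was 7.3-fold lower (log2 -2.87, SE 0.57, adjusted p = 4.57e-04) in the step. Cenpe, a kinetochore motor, was at 146, 128 and 169.8 CPM in steady state stage II, 43.2, 38.6 and 7 in stage III and 11.8, 4.34 and 13.3 in stage IV. The third stage III library lay within the range of stage IV. Cenpe fell further in stage IV (log2 -1.60, SE 0.46, adjusted p = 0.0288), a call lost without the first or the second stage III library or the second stage IV library (adjusted p = 0.139, 0.0888 and 0.168). Cenpe stood at 104, 62.2 and 80.1 CPM in steady state stage I, 165, 144 and 110.1 in IL-33 stage I, 173, 179 and 142 in stage II, 149, 112 and 126 in stage III and 15.8, 11.9 and 7.09 in stage IV. Stage IV was the low group under IL-33.

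The 4 spindle checkpoint genes were lower in the steady state step into stage III and in the IL-33 step into stage IV. Mad2l1 encodes MAD2, which holds Cdc20 while chromosomes are unattached. It was at 189, 183 and 304 CPM in steady state stage II, 35.9, 28.6 and 52.1 in stage III and 245, 325 and 241 in IL-33 stage III. Neither high group overlapped the low one, and Mad2l1 was 5.8-fold lower (log2 -2.54, SE 0.31, adjusted p = 2.22e-06) in the step. Bub1b, which encodes BUBR1 of the same inhibitory complex, was at 164, 88.7 and 199 CPM in steady state stage II, 17.2, 23.1 and 15.3 in stage III and 168, 223 and 185 in IL-33 stage III. It was 10.3-fold higher (log2 3.37, SE 0.46, adjusted p = 9.77e-06) under IL-33 in stage III, with the groups again apart. Ttk, the kinase that starts checkpoint signalling, had the largest fall of the role group in steady state, 13.7-fold. Bub1 was at 14, 2.63 and 15 CPM in steady state stage III, and its stage III difference between conditions (log2 2.15, SE 0.74, adjusted p = 0.028) was lost without the second steady state library or the second or the third IL-33 library (adjusted p = 0.109, 0.0600 and 0.0713). Its steady state step into stage III (log2 -2.58, SE 0.75, adjusted p = 0.0105) was lost without the second stage III library (adjusted p = 0.0507). Mad2l1 stood at 150.2, 145 and 203 CPM in steady state stage I, 42.1, 27.4 and 22.2 in stage IV, 224, 340.1 and 264 in IL-33 stage I, 262, 295 and 270.0 in stage II and 19.3, 40.6 and 34.3 in stage IV. Bub1b stood at 89.5, 68.4 and 89 CPM in steady state stage I, 9.72, 6.01 and 8.91 in stage IV, 187, 77.5 and 143 in IL-33 stage I, 197, 230.3 and 216 in stage II and 35, 15.8 and 5.09 in stage IV. Bub1 stood at 28.4, 22.1 and 40.8 CPM in steady state stage I, 65.4, 64.3 and 59.1 in stage II, 9.29, 0 and 9.74 in stage IV, 69.6, 39.8 and 38.2 in IL-33 stage I, 65.1, 74 and 51.7 in stage II, 36.6, 47.5 and 56.5 in stage III and 2.03, 4.91 and 1.27 in stage IV. In each of these all libraries of steady state stages III and IV and of IL-33 stage IV were below all others.

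Of the 5 genes of ubiquitin-driven chromatid separation, 4 followed the main pattern. Cdc20 activates the anaphase-promoting complex. It was at 259.6, 245 and 481 CPM in steady state stage II, 93, 48.2 and 50.4 in stage III, 39.1, 16.2 and 15.2 in stage IV and 265, 403 and 313 in IL-33 stage III. Each step down in steady state was without overlap. Cdc20 was 5.15-fold lower (log2 -2.36, SE 0.41, adjusted p = 1.17e-04) in stage III than in stage II, and 2.7-fold lower (log2 -1.44, SE 0.40, adjusted p = 0.0253) in stage IV than in stage III, the latter lost without the first stage III library or the second or the third stage IV library (adjusted p = 0.138, 0.153 and 0.116). Ube2c, the ubiquitin-conjugating enzyme of that complex, was at 259.9, 211 and 164 CPM in steady state stage II, 54.9, 29.3 and 25.9 in stage III and 355, 403 and 272 in IL-33 stage III. The IL-33 libraries were the highest, and Ube2c was 9.37-fold higher (log2 3.23, SE 0.42, adjusted p = 5.20e-06) there than in steady state stage III. Cdca3, which directs the mitosis inhibitor Wee1 to destruction, was at 142, 78.3 and 85.7 CPM in steady state stage I and 208, 398 and 245 CPM in IL-33 stage I. The groups did not overlap, and Cdca3 was 2.78-fold higher (log2 1.48, SE 0.32, adjusted p = 0.0122), a call lost without the second or the third steady state library or the second IL-33 library (adjusted p = 0.0767, 0.0688 and 0.106). In stage III it was 9.04-fold higher under IL-33 (log2 3.18, SE 0.34, adjusted p = 5.83e-07). Cdca3 stood at 195, 164 and 158 CPM in steady state stage II, 34, 29.8 and 19.4 in stage III, 41.8, 18.4 and 42 in stage IV, 235, 328 and 280.5 in IL-33 stage II, 238, 288 and 226 in stage III and 24.3, 37.8 and 21.3 in stage IV. Ube2c stood at 49.3, 22.8 and 29.8 CPM in steady state stage IV and 44.1, 65.2 and 34.3 in IL-33 stage IV, and at 350.3 ± 85.7 CPM (SD, n = 3) in IL-33 stage II, where the first and the third library read 272 and 336 CPM and the second was above both. Cdc20 stood at 186, 84.2 and 185 CPM in steady state stage I, 304, 393 and 341 in IL-33 stage I, 298, 461.04 and 365 in stage II and 18.8, 44.7 and 23 in stage IV. For Cdca3 and Ube2c all libraries of steady state stages III and IV and of IL-33 stage IV were below all others, while for Cdc20 the lowest stage I library was below the highest of stage III in steady state.

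Pttg1 (chr11:43420250-43426251, minus strand) moved the other way. It encodes securin, the inhibitor of separase that the complex destroys at anaphase. In steady state it was at 45.3, 39 and 31.8 CPM in stage I, 23.6, 27.1 and 29.5 in stage II, 47.4, 73.5 and 67.4 in stage III and 147, 147 and 162 in stage IV. From stage II on each stage lay above the one before without overlap. Pttg1 was 2.35-fold higher (log2 1.23, SE 0.29, adjusted p = 0.00232) in stage III than in stage II and 2.42-fold higher (log2 1.28, SE 0.29, adjusted p = 0.00665) in stage IV than in stage III, while Espl1, which encodes separase, was 5.12-fold lower (log2 -2.36, SE 0.43, adjusted p = 1.94e-04) in the first of these steps. Under IL-33 Pttg1 was at 44.3, 93.4 and 53.6 CPM in stage I, 36.2, 44.5 and 39.7 in stage II, 49.3, 48.1 and 44.7 in stage III and 54.6, 101 and 131 in stage IV. The stage IV libraries were above those of stage III, and Pttg1 was 2.01-fold higher (log2 1.01, SE 0.29, adjusted p = 0.0105), a call lost without the third stage IV library (log2 0.71, adjusted p = 0.101). Between conditions it was not called in any stage, with log2 -0.41, SE 0.29, adjusted p = 0.285 in stage III.

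The 4 cytokinesis genes fell together. Racgap1 was at 222, 171 and 221 CPM in steady state stage II, 22.2, 34.1 and 12.3 in stage III and 195, 249 and 226 in IL-33 stage III. The steady state stage III values were the lowest, and Racgap1 was 8.95-fold lower (log2 -3.16, SE 0.35, adjusted p = 8.73e-07) in the step. Prc1, which cross-links midzone microtubules, was at 165, 188 and 414 CPM in steady state stage II, 19.7, 29.4 and 38.9 in stage III and 203, 217 and 197 in IL-33 stage III. The third of its steady state stage II libraries was the highest by far, yet the groups were apart, with Prc1 8.72-fold lower (log2 -3.12, SE 0.40, adjusted p = 4.04e-06) in the step. Ect2, the exchange factor that switches on RhoA at the cleavage site, was at 87, 145 and 178 CPM in steady state stage II, 5.1, 6.86 and 12.7 in stage III and 119, 119 and 127 in IL-33 stage III. It had the largest fall of all members in this step, 16.5-fold (log2 -4.05, SE 0.60, adjusted p = 2.04e-05). Anln, the anillin scaffold of the contractile ring, was at 133, 147 and 116 CPM in steady state stage II, 31, 32.1 and 13.4 in stage III and 13.8, 2.12 and 7.27 in stage IV, against 76, 72.8 and 81 in IL-33 stage III and 5.41, 6.25 and 5.37 in IL-33 stage IV. The third library of steady state stage III lay just below the highest of stage IV. Anln had the smallest difference of the role group between conditions in stage III (log2 1.59, SE 0.40, adjusted p = 0.00352), and it fell again into stage IV in steady state (log2 -1.71, SE 0.41, adjusted p = 0.00956). Racgap1 stood at 114, 92.9 and 119 CPM in steady state stage I, 35.9, 10.8 and 32.2 in stage IV, 189.8, 141 and 169.5 in IL-33 stage I, 233, 255 and 269 in stage II and 23.2, 21.2 and 19.1 in stage IV. Prc1 stood at 94.7, 79.2 and 144 CPM in steady state stage I, 26.6, 7.39 and 22.6 in stage IV, 176, 117 and 163 in IL-33 stage I, 213, 253 and 215 in stage II and 16.4, 19 and 13.3 in stage IV. Anln stood at 84.4, 69.1 and 67.6 CPM in steady state stage I, 108, 63.7 and 81.7 in IL-33 stage I and 123, 101 and 97.7 in stage II. Across the 3 genes all libraries of steady state stages III and IV and of IL-33 stage IV were below all others.

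All 8 genes of chromosome structure were lower in the steady state step into stage III and higher in stage III under IL-33. Top2a (chr11:98992943-99024189, minus strand) encodes topoisomerase II alpha, which untangles sister chromatids. In steady state it was at 239.6, 243 and 252 CPM in stage I, 361, 419 and 630.1 in stage II, 52.9, 58.5 and 35.1 in stage III and 52.2, 24.1 and 35.8 in stage IV. With IL-33 the values were 522, 470.0 and 487 CPM in stage I, 701, 733 and 649.5 in stage II, 559.9, 632 and 588 in stage III and 70.3, 41.5 and 32 in stage IV. Every library of stages III and IV in steady state and of stage IV under IL-33 was below every other library. Top2a was 9.62-fold lower (log2 -3.27, SE 0.30, adjusted p = 1.16e-07) in the steady state step, 12.4-fold lower (log2 -3.63, SE 0.31, adjusted p = 3.41e-08) in the IL-33 step into stage IV, and 12.1-fold higher (log2 3.60, SE 0.31, adjusted p = 3.93e-08) under IL-33 in stage III.

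Mki67 (chr7:135689784-135716361, minus strand) encodes Ki-67, which coats mitotic chromosomes and marks cycling cells. It was at 172, 136 and 219 CPM in stage I, 315, 246 and 516 in stage II, 41.9, 77.2 and 62.6 in stage III and 55.3, 80.6 and 117 in stage IV in steady state. Under IL-33 it was at 303, 344 and 323 CPM in stage I, 479, 453.3 and 438.4 in stage II, 405, 334 and 382 in stage III and 51.2, 43.4 and 35.8 in stage IV. The same 3 groups as for Top2a were the low ones, but steady state stage IV was not below stage III. Mki67 was 5.93-fold lower (log2 -2.57, SE 0.29, adjusted p = 1.24e-06) in the steady state step and 6.17-fold higher (log2 2.62, SE 0.29, adjusted p = 9.18e-07) under IL-33 in stage III. In stage IV it was instead 1.94-fold lower (log2 -0.95, SE 0.28, adjusted p = 0.0283) under IL-33, without overlap. That call was lost without the third steady state library or the second or the third IL-33 library of stage IV (adjusted p = 0.189, 0.0955 and 0.107).

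Condensin subunits differed in how far they fell. Smc4, an ATPase of condensin, was at 287, 304 and 586 CPM in steady state stage II, 103, 138 and 169.6 in stage III, 339, 273 and 283 in IL-33 stage III and 82.9, 78.1 and 93 in IL-33 stage IV. Its groups were apart between stages II and III, but the change was among the smallest, 2.86-fold (log2 -1.52, SE 0.28, adjusted p = 1.99e-04). The partner ATPase Smc2 was at 115, 125 and 134 CPM in steady state stage I, 186, 166 and 320.5 in stage II, 23.8, 23.8 and 26.4 in stage III and 209, 185 and 203 in IL-33 stage III. Its stage III libraries were close together and far below the rest. Smc2 fell 9.09-fold (log2 -3.18, SE 0.27, adjusted p = 4.11e-08), after a rise of 1.8-fold from stage I to II (log2 0.85, SE 0.24, adjusted p = 0.047), a call lost without any 1 of the stage I libraries (adjusted p = 0.160, 0.134 and 0.0708) or the third stage II library (adjusted p = 0.290). The condensin I subunits Ncapg, Ncapd2 and Ncaph fell 15.7-fold, 7.35-fold and 7.31-fold, and Cdca2, a phosphatase anchor on chromosomes, fell 9.74-fold. Smc4 was also the called member with the smallest stage III difference between conditions, 2.18-fold. Smc4 stood at 186, 267 and 333 CPM in steady state stage I, 95.4, 105 and 164 in stage IV, 329.6, 409 and 319 in IL-33 stage I and 390.1, 364 and 342 in stage II. Smc2 stood at 25.9, 15.3 and 19.7 CPM in steady state stage IV, 211, 230.1 and 193 in IL-33 stage I, 257, 263 and 221 in stage II and 12.2, 23.1 and 17.6 in stage IV. In both condensin ATPases all libraries of steady state stages III and IV and of IL-33 stage IV were below all others, by a narrow margin for Smc4.

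**Figure D4:**
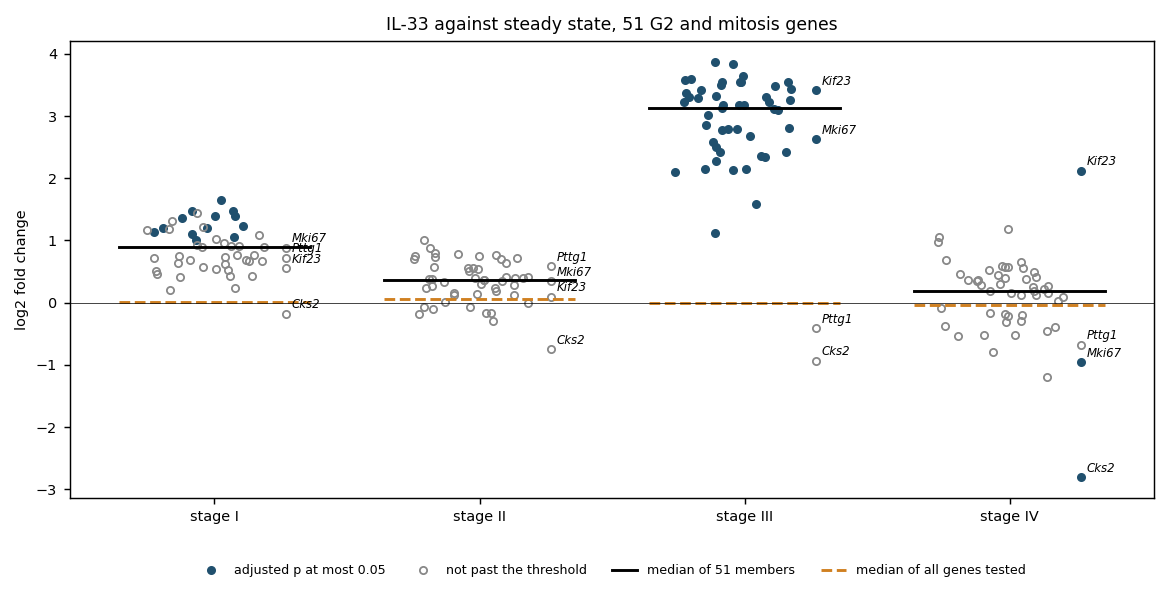
Log2 fold changes of IL-33 against steady state for the 51 members in each stage; points are genes, filled where the adjusted p was at most 0.05, with the medians of the members (solid) and of all genes tested (dashed). The member median is 0.89 in stage I, 0.36 in stage II, 3.13 in stage III and 0.18 in stage IV, and Kif23 and Cks2 lie furthest from the others in stage IV.

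The conditions differed less in the other stages. In stage I 13 of 51 members were higher under IL-33 and none lower, where 4.06% of all genes were called, 2.71% higher and 1.36% lower. They were Ccna2, Ccnb2, Cdk1, Birc5, Cdca8, Plk1, Aurka, Nusap1, Cenpa, Ube2c, Cdca3, Top2a and Ncaph. The median of all 51 was 0.89 (1.85-fold higher), 33 were higher without overlap, against 16.1% of all genes. Limma-voom called 42 members, where it called 19.9% of all genes, 12.1% higher. Ube2c was at 218, 96.4 and 81 CPM in steady state and 280.1, 624 and 336 CPM under IL-33 and differed most, 3.14-fold (log2 1.65, SE 0.39, adjusted p = 0.0217), a call lost without the second or the third steady state library or the second IL-33 library (adjusted p = 0.109, 0.113 and 0.177). The count was 0 without the second steady state library of stage I, 3 without the third, 1 without the second IL-33 library and 8 without the third. EdgeR called no kinesin, checkpoint or cytokinesis gene in stage I. In stage II edgeR called no member, where 8.03% of all genes were called, 4.06% higher and 3.97% lower, with 7 higher at an unadjusted p under 0.05. There 18 members were higher and 1 lower without overlap, against 20% and 11.4% of all genes. DESeq2 called 1 member and 12.1% of all genes, and limma-voom called 6 of 51 members and 9.85% of all genes. The edgeR count was 1 without the third steady state stage II library, and 2 without all 4 steady state libraries numbered 3. Stage IV held 3 calls, Kif23 higher and Cks2 and Mki67 lower, with a median of 0.18. That is 5.88% of the members, fewer than the 12.2% of all genes called there, 7.48% higher and 4.68% lower. Without the third steady state stage IV library only Kif23 was called. Without the third IL-33 stage IV library 2 were higher and 1 lower.

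Other genes of the cell cycle moved with the members. Of 73 further mitosis genes, 63 were lower and none higher in the steady state step into stage III (median -2.64). Of all genes 17.4% were lower and 17.2% higher there. In stage III under IL-33 66 were higher and none lower (median 2.76), against 18.5% and 14.9% of all genes. In the IL-33 step into stage IV 66 were lower, against 16% of all genes. Ncapg2, a condensin II subunit, fell 21.3-fold in the steady state step (log2 -4.42, SE 0.45, adjusted p = 3.48e-07), and Sgo1, shugoshin, which guards centromere cohesion, fell 6.74-fold (log2 -2.75, SE 0.27, adjusted p = 1.92e-07). Of 50 S phase and replication genes, 45 were lower in the steady state step (median -2.61), against 17.4% of all genes. In stage III under IL-33 44 were higher, against 18.5%, and 47 were lower in the IL-33 step into stage IV, against 16%. In the steady state step from I to II edgeR called none of the 50, where it called 4.87% of all genes. Their median was 0.13, beside 0.87 for the 51 members, and the difference between the lists was not tested.

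Of 25 regulators of the cell cycle, 12 were lower and 5 higher in steady state stage III than in stage II. Of all genes 17.4% were lower and 17.2% higher in that step, so the 5 higher are close to the general share. Foxm1, a transcription factor that activates G2 and M phase genes, was 23.5-fold lower (log2 -4.56, SE 0.62, adjusted p = 9.15e-06), and it was 25.9-fold higher (log2 4.70, SE 0.63, adjusted p = 7.01e-06) in stage III under IL-33. Rbl1, the p107 pocket protein, was 8.72-fold lower (log2 -3.12, SE 0.30, adjusted p = 1.92e-07), and the repressor E2f8 was 7.51-fold lower (log2 -2.91, SE 0.32, adjusted p = 6.52e-07). The 5 that were higher, named after their values were seen, were Lin37, E2f2, Rbl2, Cdkn1b and Cdkn2d. Cdkn1b, the inhibitor p27, was 6.02-fold higher (log2 2.59, SE 0.38, adjusted p = 2.02e-05) in that step, 4.17-fold lower (log2 -2.06, SE 0.37, adjusted p = 1.97e-04) in stage III under IL-33 and 4.26-fold higher (log2 2.09, SE 0.37, adjusted p = 1.82e-04) in the IL-33 step into stage IV.

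Markers of other cell types moved between the same groups. Of all genes tested, 17.4% were called lower and 17.2% higher in the steady state step from II to III. In stage III under IL-33 18.5% were called higher and 14.9% lower. For the IL-33 step into stage IV the shares were 16% lower and 13.1% higher. The 5 primary granule genes summed to 2466 to 9767 CPM in steady state stage II and 159 to 439.9 CPM in stage III, and all 5 were lower. In IL-33 stage III they summed to 254 to 312 CPM, and 1 of the 5 was higher and 2 were lower than in steady state. Basophil and mast cell markers summed to 1460 to 3725 CPM in steady state stage II, 737 to 1101 in stage III and 3282 to 3636 in IL-33 stage III. Of the 8, 5 were lower in the steady state step, and 6 were higher and 1 lower in stage III under IL-33. Neutrophil markers summed to 16059 to 25431 CPM in steady state stage II, 19767 to 23516 in stage III and 2656 to 3894 in IL-33 stage III, where 11 of 11 were lower than in steady state. Monocyte and macrophage markers were lower there in 9 of 11 and higher in 1. Stem and progenitor markers summed to 558 to 819 CPM in steady state stage II and 156 to 258 in stage III, with 5 of 8 tested lower and 1 higher. Under IL-33 they summed to 247 to 289 CPM in stage III and 69.9 to 105 in stage IV, with 4 of 8 lower and 1 higher. Of these genes Mecom was at 0 in all 4 groups. T and NK cell markers summed to 273 to 838 CPM in steady state stage II and 24.01 to 84.6 in stage III, with 1 of 3 tested lower and 1 higher. Cd3e, Ncr1 and Klrb1c were at 0 in both stages. Under IL-33 they summed to 306 to 367 CPM in stage III and 170.2 to 249 in stage IV, with none of 3 called. In the IL-33 step into stage IV, monocyte and neutrophil markers were each higher in 6 of 11 and lower in none. Their sums went from 1215 to 1442 CPM to 2952 to 3148 CPM and from 2656 to 3894 CPM to 6279.6 to 10414 CPM. Erythroid markers were lower there in 3 of 5 tested, from 45.8 to 52.8 CPM to 1.26 to 6.27 CPM, with the globin genes Hba-a1, Hba-a2, Hbb-bs and Hbb-bt at 0. Primary granule genes were higher in 3 of 5 and lower in 1, and basophil and mast cell markers were higher in 1 of 8 and lower in 1. The part of these cell types in the members' differences was not tested.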

How the data were processed

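Libraries of bulk RNA from the sorted cells were made, per the labels' protocols, with the SMART-Seq v4 kit followed by Nextera XT. The authors deposited 1 table of whole-number read counts per gene for each of the 24 libraries. STAR 2.6.1a, mm10 and DESeq2 are named in the submitters' processing notes. For the counting tool, its strand setting and its annotation the entry is: not given in the sources used here. The rows for reads without a gene (9.19% to 30.5% of a library) and for ambiguous reads (1.73% to 2.60%) were left out of library sizes and tests.

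Counts were tested in R 4.3.3 with edgeR 4.0.16: filterByExpr by group (12743 genes kept), TMM factors and 1 quasi-likelihood fit of 8 groups, with 13 comparisons, each adjusted by Benjamini-Hochberg over all genes at a threshold of 0.05. The fit was tested on simulated data. Alternatives were library totals, relative log expression factors, DESeq2 1.42.0, limma 3.58.1 (voom with sample weights), no filter, a minimum of 10 CPM in 3 libraries, the compared groups only, a replicate block, the share of reads without a gene as a covariate, no steady state libraries numbered 3, and each library left out. The covariate was not used in the comparisons of IL-33 against steady state within a stage. No 2 libraries held the same values. The series' design text calls the libraries biological replicates, each a pool of 3 mice.

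Whether same-numbered libraries pair was checked by correlating their deviations from the group means. In steady state every correlation was over 0.1 between stages I and II (0.12 to 0.30) and between III and IV (0.11 to 0.22). With IL-33 this held between I and II (0.15 to 0.24) and between II and III (0.13 to 0.24). It did not hold elsewhere. In the steady state step II to III (0.058 to 0.163) and the IL-33 step III to IV (0.046 to 0.103) each library still correlated best with its own number. The labels do not say what a shared number marks.

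The 51 members and all lists were chosen with earlier results of these data known. Values in every library are given for Mki67, Top2a, Ccnb1 and Cdk1, for the 2 members of each role with the highest mean CPM, and for up to 5 members per comparison whose call departs from that of most, except that Ube2c in IL-33 stage II is given by its mean, SD and 2 of 3 libraries. At most 3 genes per other list are named, by smallest adjusted p, except 5 regulators named after their values were seen.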

Additional observations from a re-analysis of the deposited data

Results flagged for a closer look

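The change from stage II to III differed between IL-33 and steady state for 42 of the 51 members by the interaction test in edgeR. On the log2 scale the difference (IL-33 minus steady state) was 2.28 for Mki67, 3.04 for Top2a, 2.88 for Ccnb1 and 2.46 for Cdk1. All 4 had positive values, the fall being smaller under IL-33. The Ccnb1 difference was lost without the second steady state stage III library (2.65, adjusted p = 0.0558), the first or the third IL-33 stage II library (2.76 and 2.79, adjusted p = 0.0549 and 0.0573) or the second IL-33 stage III library (2.59, adjusted p = 0.0631).

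The change from stage III to IV also differed, for 47 members. The difference was -3.58 for Mki67, -3.24 for Top2a, -2.997 for Ccnb1 and -3.09 for Cdk1. Both sets of differences use the same 6 stage III libraries, so they are not independent.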

How the results depend on the processing

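The large comparisons kept their direction and most of their calls. In the steady state step from II to III 47 of 50 calls held in all 16 settings, the others being Bub1, Cdc25c and Kif4. In the IL-33 step from III to IV 48 of 50 held in 15 settings (not Cks2 and Pttg1), and in stage III between conditions 48 of 49 in 15 (not Bub1). Of the differences between steps, 36 of 42 and 38 of 47 calls held in 22 settings. With 1 library left out, the counts ranged from 49 to 50, 48 to 49, 48 to 49, 36 to 45 and 40 to 49. The small comparisons were less steady, and the cause was not tested. For stage I to II in steady state the count was 3 with library totals (4.07% of all genes called), 15 by DESeq2 (9.14%), 17 by limma-voom (4.13%), 0 in a fit of the compared groups only (0.186%), 21 with the replicate block (8.39%) and 0 to 9 with 1 library left out. For stage III to IV in steady state it was 3 by limma-voom (7.19%), 1, higher, in the compared groups only (2.24%), 4 without the steady state libraries numbered 3 (6.47%), 2 with the share of reads without a gene as a covariate (4.06%) and 4 to 10 with 1 library left out. Limma-voom called 10 in the IL-33 step I to II (7.1%), 2 in the step II to III (8.55%) and 42 in stage I between conditions (19.9%), where leaving out 1 library gave 0 to 11. In stage II between conditions DESeq2 (12.1%), no filter (5.92%), the compared groups only (6.55%) and the replicate block (9.69%) each gave 1, limma-voom 6 (9.85%), the fit without libraries numbered 3 gave 2 (8.1%) and leaving out 1 library 0 to 1. In stage IV the balance turned to higher without the third steady state library (1 called) or the third IL-33 library (3 called), over a range of 1 to 4. With library totals the median difference of the step III to IV was -3.18, against -2.80.

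Library totals moved the median of all genes, by -0.33 in the steady state step II to III, -0.22 in the IL-33 step III to IV and 0.27 in stage III between conditions. Relative to the median of all genes under that scaling the members' medians were -2.85, -3.43 and 3.15. Of all genes called, 30.6%, 29.7% and 71.4% were then higher, against 49.7%, 45.0% and 55.4% with TMM. For the differences II to III and III to IV the share was 88.6% and 22.1%, against 67.9% and 45.0%, and for stages I and IV between conditions 40.1% and 50.0%, against 66.6% and 61.5%. For the steady state steps I to II and III to IV it was 56.3% and 57.0%, against 73.5% and 38.5%. The replicate block, where the numbers pair the libraries, changed no other count of members by over 1.5 times, and in the steps where they do not pair it gave 50 in the steady state step II to III and 50 in the IL-33 step III to IV. In every step between stages each library correlated best with its own number. At the low levels of stage IV, where Bub1 and Cdc25c had libraries at 0 counts, single counts limit the precision.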
